A study of Mus musculus with 16 samples.

Results

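The genes described here are 10 that mark white fat cells or encode the hormones these cells release: Adipoq, Lep and Retn (adipokines), Plin1, Plin4 and Cidec (lipid droplet proteins), Pnpla2 and Lipe (lipases), Fabp4 (a fatty acid carrier) and Pparg (a transcription factor). They were taken by name from a table of raw counts for 21640 genes, and 10 of 10 were found and passed the filter on low counts at both time points. The tissue was whole thyroid from 16 wild-type male C57Bl/6J mice, 1 RNA library per mouse. Mice were 8 weeks old when they either stayed on a control chow diet (CD) or were moved to a high-fat diet with sucrose in the drinking water (HF+SD), and thyroids were taken after 3 or 6 weeks, with 4 mice in each of the 4 groups. Every library was tested here. For the later time point, the paper gives fewer CD mice than HF+SD mice in its RNA-seq analysis. The paper does not say which CD library was not used, so the control set tested here differs from that of the paper. The library names of 3 and 6 weeks begin with different numbers, whose meaning the labels do not state. Levels were therefore compared between diets within a time point and not between time points.

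A white adipocyte stores triglyceride in a single large droplet. Perilipins and CIDEC coat and enlarge that droplet, and the lipases encoded by Pnpla2 and Lipe release fatty acids from it in sequence. PPARG switches on much of this program during fat cell differentiation, and adiponectin, leptin and resistin are secreted into the blood. In obesity, leptin in white fat and blood is known to rise with fat mass, whereas adiponectin tends to fall. For this diet model, the paper reports that leptin in plasma and serum did not change between the diet groups. The thyroid lies beside fat of the neck and holds few fat cells of its own, and thyrocytes are its main epithelial cells.

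Each library held 30025256 to 48508653 counts, and the 10 genes together took 0.0457% to 0.1999% of them. The fewest counts of any of the 10 genes in a library were 76 (Lep). A list of 14 thyrocyte genes summed to 68580 to 316602 CPM across the 16 libraries, so the genes of the labelled tissue were abundant in each. CPM is the read count of a gene scaled by the TMM-adjusted size of its library, set within each time point. Skeletal muscle RNA stood apart at 6 weeks. A list of 21 muscle genes summed to 848 CPM in CD mouse M22, to 35257, 216215 and 125622 CPM in CD mice M43, M45 and M48, and to between 1152 and 4099 CPM in the HF+SD mice. At 3 weeks the same sum was 14.7 to 78.7 CPM on the CD and 32.9 to 69.3 CPM on the HF+SD. Results at 6 weeks are therefore also given without M43, M45 and M48.

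To show the DNA just upstream of these genes, the 250 bases before a RefSeq transcription start (assembly GRCm38.p6, gene strand, 5′ to 3′) are printed for 4 genes: Lep and Adipoq, the adipokines that differed in their pattern across mice, and Plin1 and Pparg, where the letters TTGCNNAA, a C/EBP-type motif, were found more than once. Capitals mark TTGCNNAA on either strand. The windows are chr6:29059971-29060220 (Lep, plus strand), chr16:23146286-23146535 (Adipoq, plus strand), chr7:79732777-79733026 (Plin1, minus strand) and chr6:115421816-115422065 (Pparg, plus strand, the third of its 3 listed starts).
Lep: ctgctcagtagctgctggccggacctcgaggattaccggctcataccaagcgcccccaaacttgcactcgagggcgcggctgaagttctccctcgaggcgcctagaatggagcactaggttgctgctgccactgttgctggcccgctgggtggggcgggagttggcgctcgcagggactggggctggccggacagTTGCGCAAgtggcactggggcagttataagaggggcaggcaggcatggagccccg
Adipoq: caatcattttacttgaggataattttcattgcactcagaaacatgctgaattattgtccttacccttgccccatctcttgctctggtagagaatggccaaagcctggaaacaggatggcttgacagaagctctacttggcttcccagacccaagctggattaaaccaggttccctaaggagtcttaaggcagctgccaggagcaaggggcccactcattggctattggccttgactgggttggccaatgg
Plin1: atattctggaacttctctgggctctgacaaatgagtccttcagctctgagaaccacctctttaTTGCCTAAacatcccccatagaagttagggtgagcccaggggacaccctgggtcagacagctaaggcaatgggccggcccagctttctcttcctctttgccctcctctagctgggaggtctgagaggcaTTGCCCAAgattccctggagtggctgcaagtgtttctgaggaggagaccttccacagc
Pparg: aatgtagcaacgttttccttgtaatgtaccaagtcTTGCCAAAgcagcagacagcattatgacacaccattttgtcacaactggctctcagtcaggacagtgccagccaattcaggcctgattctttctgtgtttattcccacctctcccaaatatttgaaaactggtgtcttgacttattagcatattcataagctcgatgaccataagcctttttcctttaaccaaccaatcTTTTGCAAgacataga

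RefSeq windows were at hand for 9 of the 10 genes, 13 windows in all. TTGCNNAA lay in 4 of the 13 windows, in Cidec, Lep, Plin1 and Pparg, against 9.56% of 32851 mouse windows of the same length. In Lep the match begins 55 bases before the start and reads the same on both strands. In Plin1 the matches begin 187 and 58 bases before the start, and in Pparg 215 and 16 bases before it. The letters AGGTCA, the core of a nuclear receptor element, lay in 2 windows of Pparg and in 14% of all windows. CCAAT lay in windows of Adipoq, Plin4 and Pparg, and 3 times in that of Adipoq, against 33.8% of all windows. CACGTG, an E-box, lay in 1 window of Lipe (6.02% of all windows), and TATAAA in 1 of Pparg (12.4%). Both strands were searched for each motif. A match of letters is a description of the DNA and does not show that a factor binds there.

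White adipocyte genes were lower on the HF+SD. The fitted difference was below 0 for 10 of 10 genes at 6 weeks and for 10 of 10 at 3 weeks, where 50.8% and 51.1% of all tested genes were below 0. The median log2 fold change of the 10 genes was -1.09 at 6 weeks and -0.96 at 3 weeks, and that of all tested genes was -0.011 and -0.0083. At 6 weeks 8 of the 10 genes fell (edgeR, adjusted p under 0.05 and at least a 2-fold difference), and the exceptions were Lep and Lipe. In that comparison 12.6% of 18249 genes were called, 6.01% in the lower direction. At 3 weeks 5 of the 10 fell, namely Retn, Plin1, Cidec, Fabp4 and Pparg, where 4.66% of 17238 genes were called, 1.40% in the lower direction. With no minimum fold change, 8 of the 10 passed at 3 weeks, all but Lep and Plin4. In the lower direction 5.78% of all genes did. At 6 weeks 8 of the 10 passed, all but Lep and Lipe, beside 9.55% of all genes in the lower direction. Every HF+SD mouse lay below every CD mouse for 6 genes at 6 weeks and for 8 genes at 3 weeks, against 9.97% and 10.5% of all genes. In bulk tissue, a smaller share of fat cells in the sample and less RNA per fat cell cannot be told apart. The paper reports larger thyroids on the HF+SD at both time points, and the amount of neck fat taken with each gland is not given. The part of either in the lower levels was not tested.

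**Figure D1:**
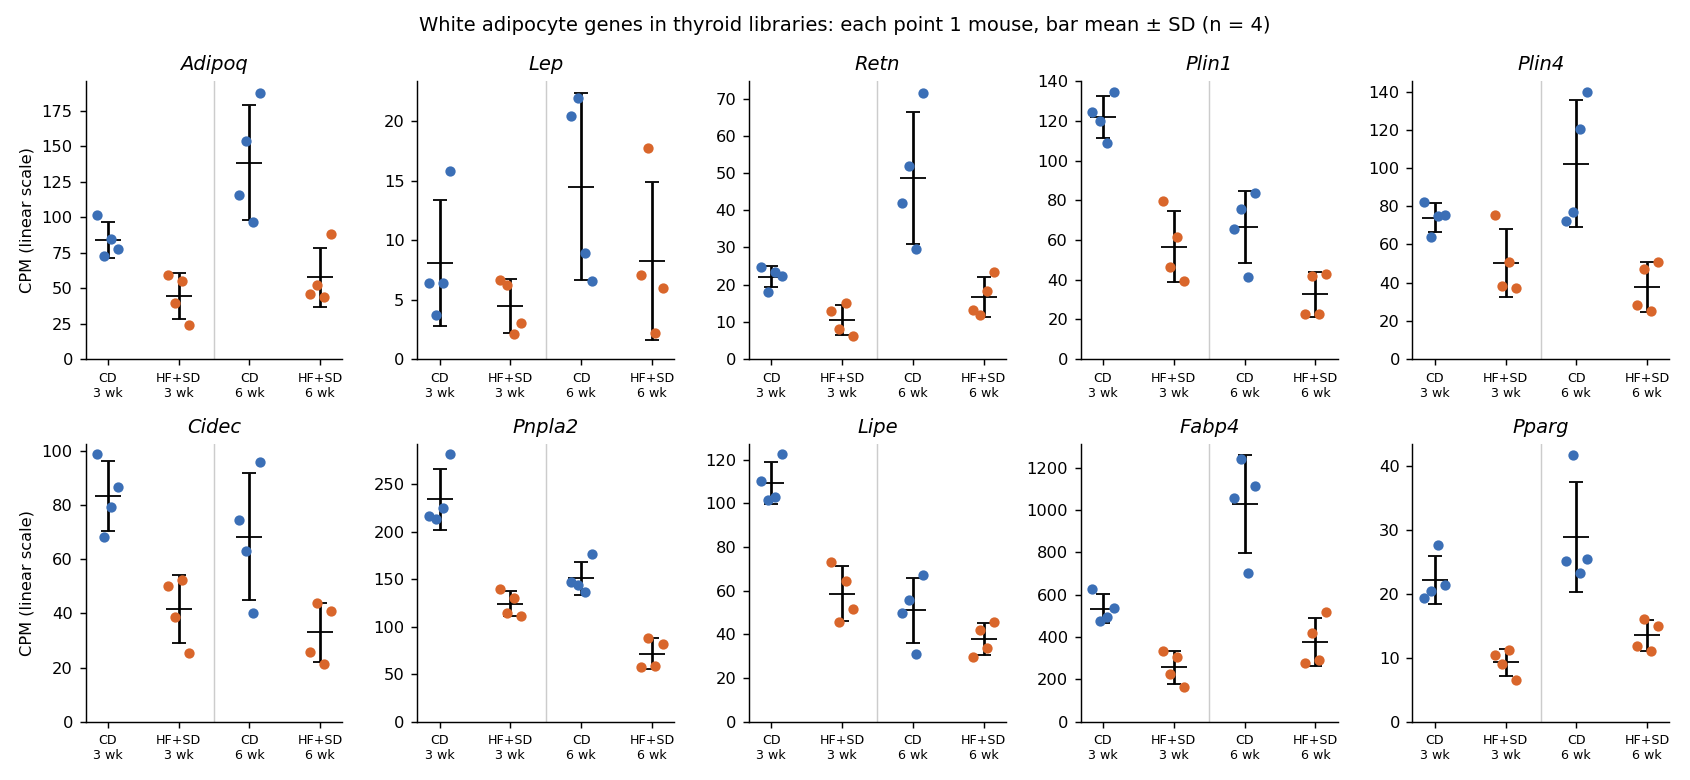
Level of each of the 10 genes in CPM (linear axis from 0) in the 4 groups. Each point is 1 mouse, and the bar is the mean ± SD of 4 mice. For Adipoq at 6 weeks the CD mice lie at 96.5 CPM and above and the HF+SD mice at 88.3 CPM and below, whereas the Lep points of both diets are mixed.

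Adiponectin was lower on the HF+SD. Adipoq (ENSMUSG00000022878.6) encodes the abundant circulating hormone of fat cells that raises insulin sensitivity. At 6 weeks its level was 115, 154, 96.5 and 188 CPM in the CD mice and 46.0, 52.5, 43.6 and 88.3 CPM in the HF+SD mice. All HF+SD mice were below all CD mice. Adipoq fell to 41.6% of the CD level (log2 fold change -1.26, SE 0.28, adjusted p = 0.0149). After 3 weeks Adipoq measured 102, 72.4, 84.6 and 77.8 CPM on the CD and 59.3, 39.2, 54.9 and 24.1 CPM on the HF+SD, again without overlap. That difference passed the adjusted p but not the fold minimum (log2 fold change -0.92, SE 0.25, adjusted p = 0.0328).

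Resistin gave the largest 6-week difference of the 10 genes. Retn (ENSMUSG00000012705.17) encodes a secreted cysteine-rich protein that in mice comes mainly from fat cells. Retn at 6 weeks measured 41.9, 52.0, 29.5 and 71.5 CPM on the CD and 13.2, 11.7, 18.4 and 23.4 CPM on the HF+SD. The diets did not overlap, and Retn fell to 34.3% of the CD level (log2 fold change -1.55, SE 0.30, adjusted p = 0.00871). Values after 3 weeks ran from 18.1 to 24.8 CPM on the CD and from 6.19 to 15.02 CPM on the HF+SD (log2 fold change -1.07, SE 0.25, adjusted p = 0.0196).

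Leptin did not separate the diets. Lep (ENSMUSG00000059201.13) encodes the fat cell hormone that reports fat stores to the brain. Lep at 6 weeks measured 20.5, 22.02, 8.93 and 6.60 CPM on the CD and 7.09, 17.8, 2.21 and 5.99 CPM on the HF+SD. The highest HF+SD mouse was above 2 of the 4 CD mice, and in fold terms the levels within each diet spread more widely than those of the other 9 genes. The log2 fold change was -0.81 with an SE of 0.60 (adjusted p = 0.360), and an exact permutation test gave p = 0.171. After 3 weeks it measured 6.41, 3.69, 6.38 and 15.8 CPM on the CD and 6.62, 6.25, 2.07 and 3.06 CPM on the HF+SD. The 2 higher HF+SD mice were again within the CD range (log2 fold change -0.85, SE 0.48, adjusted p = 0.258, exact permutation p = 0.229). A Lep difference of 0 and one as large as that of Adipoq both lay within 2 SE of the estimate at each time point.

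Of the lipid droplet genes, Plin1 and Cidec fell at both time points and Plin4 at 6 weeks. Plin1 (ENSMUSG00000030546.15) encodes perilipin 1, the coat protein that guards the droplet of white fat cells. At 6 weeks it measured 65.4, 75.6, 41.5 and 83.6 CPM on the CD and 22.8, 41.7, 22.7 and 42.9 CPM on the HF+SD. The lowest CD mouse, M45, sat just below the 2 higher HF+SD mice. Plin1 fell to 48.9% (log2 fold change -1.03, SE 0.29, adjusted p = 0.0320). After 3 weeks Plin1 ran from 109 to 134 CPM on the CD and from 39.2 to 79.5 CPM on the HF+SD, with no overlap (log2 fold change -1.11, SE 0.19, adjusted p = 0.00538).

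Cidec (ENSMUSG00000030278.12), whose protein fuses small droplets into large ones, followed Plin1. It measured 39.99 to 95.9 CPM on the CD and 21.4 to 43.7 CPM on the HF+SD at 6 weeks, where CD mouse M45 again sat within the HF+SD range. Cidec fell at 6 weeks (log2 fold change -1.05, SE 0.31, adjusted p = 0.0378). Ranges at 3 weeks were 68.0 to 98.7 CPM and 25.4 to 52.4 CPM, and the log2 fold change of -1.0003 (SE 0.21, adjusted p = 0.0130) lay at the fold minimum itself.

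Plin4 (ENSMUSG00000002831.15) encodes a perilipin of small and nascent droplets that is abundant in white fat and present in muscle. At 6 weeks it measured 72.1, 76.8, 121 and 139.8 CPM in the CD mice and 28.2, 47.3, 24.9 and 50.6 CPM in the HF+SD mice. The 2 highest CD values belonged to M45 and M48, the mice with the most muscle RNA. Plin4 fell to 36.9% at 6 weeks (log2 fold change -1.44, SE 0.30, adjusted p = 0.0115). At 3 weeks it measured 82.1, 63.9, 74.8 and 75.3 CPM on the CD and 75.1, 38.4, 50.8 and 37.1 CPM on the HF+SD. One HF+SD mouse, M7, lay within the CD range, and the difference did not pass (log2 fold change -0.56, SE 0.21, adjusted p = 0.0996). The difference between the 6-week and 3-week diet effects of Plin4 was -0.94 (SE 0.40, edgeR adjusted p = 0.181). The unadjusted interaction p lay under 0.05 for 1 of the 10 (Plin4) and for 4217 of 18929 genes in all. None of the 10 was called for the interaction, 0 by edgeR, DESeq2 or limma, beside 0.0687% of 18929 genes in edgeR.

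The lipases differed from each other at 6 weeks. Pnpla2 (ENSMUSG00000025509.16) encodes adipose triglyceride lipase, which takes the first fatty acid off a triglyceride. At 6 weeks it measured 147, 144, 136 and 176 CPM on the CD and 57.8, 88.5, 58.7 and 82.1 CPM on the HF+SD. The gap between the lowest CD and the highest HF+SD mouse was wide relative to either range, and Pnpla2 fell to 47.6% (log2 fold change -1.07, SE 0.18, adjusted p = 0.00407). After 3 weeks Pnpla2 ran from 213 to 281 CPM on the CD and from 112 to 139 CPM on the HF+SD. That difference had the smallest adjusted p of the 10 genes but missed the fold minimum (log2 fold change -0.92, SE 0.11, adjusted p = 0.000958).

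Lipe (ENSMUSG00000003123.16) encodes hormone-sensitive lipase, the next enzyme in the sequence. At 3 weeks it measured 110.3, 102, 103 and 123 CPM on the CD and 73.2, 45.4, 64.2 and 51.4 CPM on the HF+SD, without overlap. The log2 fold change was -0.90 (SE 0.14, adjusted p = 0.00354). At 6 weeks it measured 49.9, 55.6, 31.1 and 67.1 CPM on the CD and 29.8, 42.1, 33.9 and 45.5 CPM on the HF+SD. CD mouse M45 fell among the HF+SD mice, and the log2 fold change was -0.43 (SE 0.23, adjusted p = 0.219, exact permutation p = 0.171). Exons of Lipe share 918 bases with 4732471J01Rik on the opposite strand, and the sources used here do not say whether counting used strand. That gene had 97 to 141 counts per library at 6 weeks, against 956 to 2435 for Lipe.

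Fabp4, the most abundant of the 10 genes, fell at both time points. Fabp4 (ENSMUSG00000062515.4) encodes the main cytosolic fatty acid carrier of fat cells, which endothelial cells and macrophages also make. At 6 weeks it measured 1055, 1242, 703 and 1112 CPM on the CD and 278, 418, 290.3 and 518 CPM on the HF+SD. The diets were far apart, and Fabp4 fell to 36.6% (log2 fold change -1.45, SE 0.26, adjusted p = 0.00622). After 3 weeks Fabp4 ran from 477 to 628 CPM on the CD and from 164 to 335 CPM on the HF+SD (log2 fold change -1.05, SE 0.20, adjusted p = 0.00846). Over the same libraries the summed level of 12 endothelial genes was higher on the HF+SD, 1453 to 1705 CPM against 401 to 533 CPM at 6 weeks and 1211 to 1816 CPM against 622 to 815 CPM at 3 weeks. The part of these cells in the Fabp4 level was not tested.

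Pparg (ENSMUSG00000000440.13) encodes the nuclear receptor that drives fat cell differentiation. At 6 weeks it measured 25.2, 41.7, 23.3 and 25.5 CPM on the CD and 11.8, 16.1, 11.1 and 15.04 CPM on the HF+SD. CD mouse M43 stood above the other 3 CD mice, and all CD mice were above all HF+SD mice. Pparg fell to 46.6% at 6 weeks (log2 fold change -1.10, SE 0.22, adjusted p = 0.00925). At 3 weeks it measured 19.4, 20.4, 27.6 and 21.4 CPM on the CD and 10.5, 8.98, 11.2 and 6.51 CPM on the HF+SD, a fall to 41.9% and the largest 3-week difference of the 10 genes (log2 fold change -1.25, SE 0.18, adjusted p = 0.00200).

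**Figure D2:**
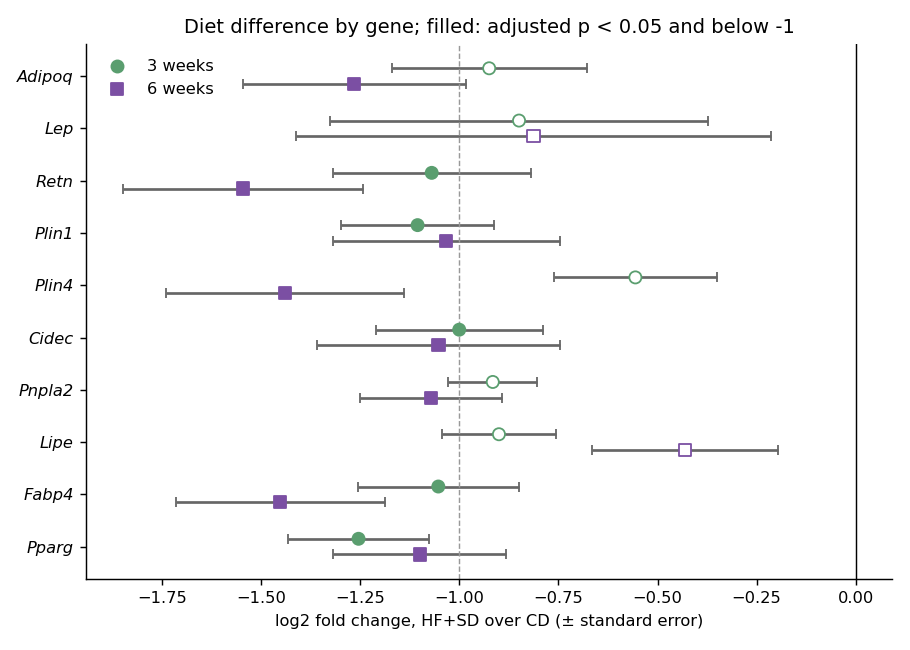
Log2 fold change of HF+SD over CD for the 10 genes at 3 weeks (circles) and 6 weeks (squares), with bars of ± 1 standard error. Filled symbols mark genes called at an adjusted p under 0.05 and a log2 fold change below -1 (dashed line). All 20 symbols lie below 0, and the bars of Lep are the widest.

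How many genes were called depended on single mice. Leaving out M43, M48, M5 or M18 left 5 called at 6 weeks and leaving out M34 left 4, with Fabp4, Plin4 and Retn called in all 8 such fits. Leaving out M53 left 3 called at 3 weeks, M19y 2 and M31 1, with Pparg called in all 8. The 10 genes stayed below 0 in each of these fits. With the muscle list's score as a covariate, 4 of the 10 genes were called (Fabp4, Pnpla2, Pparg and Retn), while the median log2 fold change was -1.14 and 10 of 10 stayed below 0. Leaving out M45 alone, the mouse with the most muscle RNA, kept 8 called. Without M43, M45 and M48, which leaves M22 as the single CD mouse and assumes that it varies like the HF+SD mice, 1 was called (Fabp4), with 10 of 10 still below 0 and a median log2 fold change of -1.03. M22, whose muscle sum of 848 CPM was below that of each HF+SD mouse, had a higher level than every HF+SD mouse for 10 of 10 genes, which held for 31.4% of all tested genes. Its log2 CPM exceeded the HF+SD mean by 0.42 (Lipe) to 1.67 (Lep). M22 was low in muscle RNA but not in parathyroid RNA. A list of 3 parathyroid genes summed to 14745.5 CPM in M22 and to between 2179 and 4345 CPM in the other CD mice. In the HF+SD mice of 6 weeks the sum was 460 to 1966 CPM. The part of such carried-over tissue in the levels of the 10 genes was not tested.

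Compared per kilobase of annotated exon in CD mice at 6 weeks, Fabp4 was the most abundant (229 CPM per kb), followed by Adipoq (100.3), Pnpla2 (49.9), Cidec (36.8), Retn (30.8), Plin4 (17.7), Plin1 (14.3), Pparg (9.80), Lipe (8.65) and Lep (4.32 CPM per kb). Fabp4 and Adipoq each stood clear of the next gene in all 4 mice, and from Pnpla2 downward each gene overlapped the next over the mice. Exon lengths were the union over annotated transcripts, which for Fabp4 came to 4489 bases.

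Whether the 10 genes were lower by the same factor was asked by setting each against 7 other adipocyte genes that were not among them: Cfd, Adig, Trarg1, Acvr1c, Lgals12, Aqp7 and Hcar1. These 7 were themselves below 0 at both time points, with 3 called lower at 6 weeks and 4 at 3 weeks, and at 6 weeks the log2 fold changes of the 7 ran from -2.14 (Adig) to -0.24 (Hcar1). The measure is the log2 CPM of a gene minus the mean log2 CPM of the 7 in the same mouse. An exact permutation test of 4 mice against 4 cannot go below p = 0.0286, and the 20 tests made here are given unadjusted. After Benjamini-Hochberg adjustment over the 20 the smallest p was 0.190.

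Lipe departed upward at 6 weeks. Its log2 ratio to the 7 genes was 1.63, 1.54, 1.22 and 1.45 in the CD mice and 2.16, 2.09, 2.14 and 1.88 in the HF+SD mice. All HF+SD mice were above all CD mice, by 0.61 on average (exact permutation p = 0.0286). Against Adipoq alone the difference was 0.88 (exact permutation p = 0.0286). The Lipe ratio at 3 weeks differed by 0.076 (exact permutation p = 0.6).

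Plin4 departed upward at 3 weeks. Its log2 ratio was 2.08, 1.98, 2.15 and 2.14 in the CD mice and 2.67, 2.33, 2.33 and 2.57 in the HF+SD mice. The diets did not overlap, and the mean difference was 0.39 (exact permutation p = 0.0286). Against Adipoq alone it was also 0.39, with some overlap (exact permutation p = 0.0571). At 6 weeks the Plin4 ratio differed by -0.44 (exact permutation p = 0.2).

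Fabp4 departed downward at 6 weeks, with ratios of 6.03, 6.02, 5.72 and 5.496 on the CD and 5.38, 5.40, 5.23 and 5.39 on the HF+SD. The mean difference was -0.46 without overlap (exact permutation p = 0.0286), and against Adipoq alone it was -0.19 (exact permutation p = 0.286). Retn measured -0.52 and Adipoq -0.27 at 6 weeks, with overlap between the diets (exact permutation p = 0.0571 for each). For Plin1, Cidec, Pnpla2 and Pparg the differences at 6 weeks lay between -0.087 and -0.042. The 3-week differences of the 9 genes other than Plin4 lay between -0.27 (Pparg) and 0.21 (Lep), with exact permutation p-values of 0.114 and above.

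Leptin stood out by its spread across mice. Its log2 ratio to the 7 genes differed between diets by 0.015 at 6 weeks (exact permutation p = 0.971) and 0.21 at 3 weeks (exact permutation p = 0.743). Within the CD mice at 6 weeks, its SD was 1.02, where the SDs of the other 9 genes ran from 0.080 (Adipoq) to 0.52 (Plin4). The ratio reached 0.34 in M22 and was -1.89 in M48, on the same diet.

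**Figure D3:**
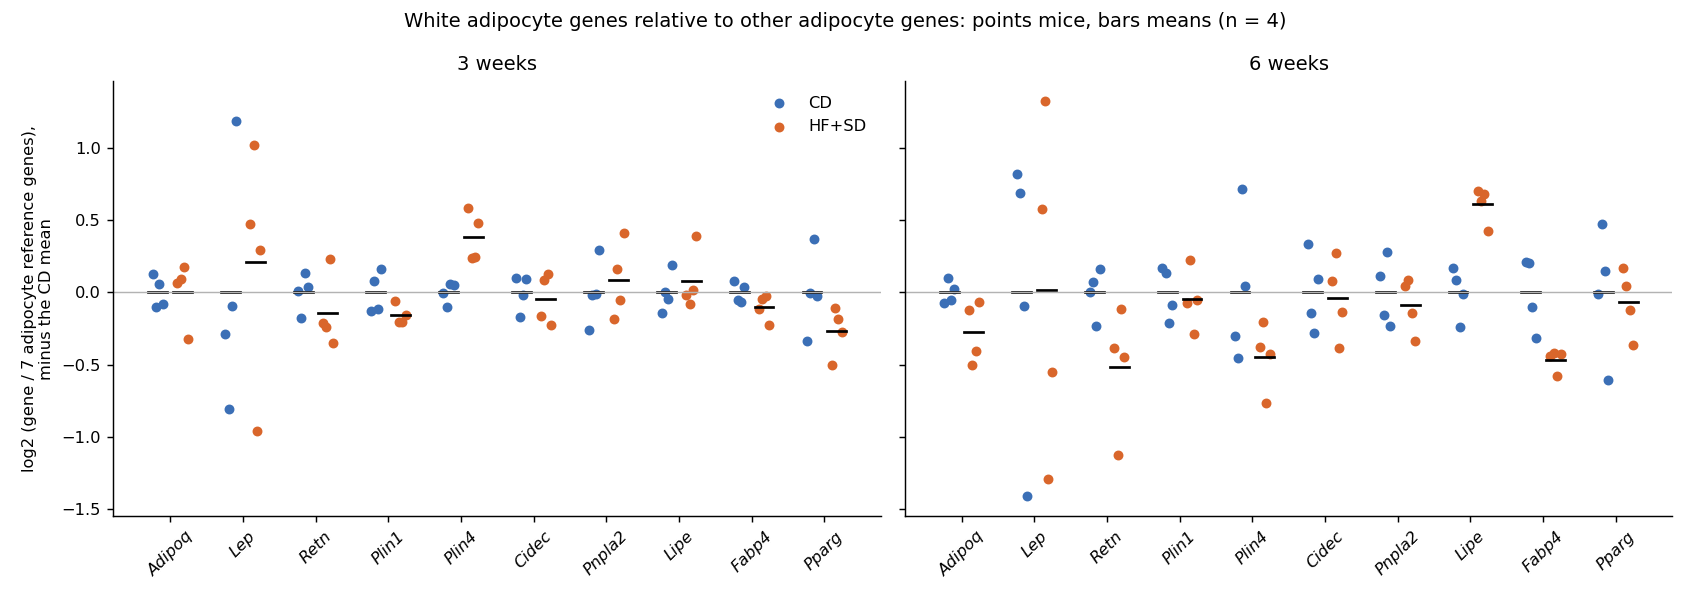
Log2 ratio of each gene to the mean of 7 adipocyte reference genes, drawn as the difference from the CD mean of the same time point. Points are mice and bars are means of 4. Lipe at 6 weeks (0.61) and Plin4 at 3 weeks (0.39) lie above 0, Fabp4 at 6 weeks (-0.46) lies below it, and Lep is the most scattered.

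Adipoq and Lep lay at opposite ends in how closely they followed the 7 adipocyte genes from mouse to mouse. After each group's mean was removed, the log2 CPM of Adipoq and the mean of the 7 adipocyte genes had r = 0.94 over the 16 libraries (rho = 0.96). Values of r for Plin1, Fabp4, Lipe, Cidec, Retn, Pnpla2, Plin4 and Pparg were 0.93, 0.92, 0.88, 0.87, 0.82, 0.75, 0.72 and 0.57, and that of Lep was 0.11. Without the 2 mice farthest from the median of the 7-gene mean, r was 0.92 for Adipoq and 0.32 for Lep. These correlations are descriptions, since genes of a library share its depth, its scaling and its content of fat.

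The genes most like Adipoq and Lep across mice were not shared. With log2 CPM centred within each time point, so that the diet difference remains in the values, the 5 of 17023 genes with the highest r to Adipoq over 16 libraries were Fabp4 (0.97), Vnn3, Ces1f, Retn and Pck1 (0.96 each). For Lep they were Sult1a1 (0.82), B430219N15Rik (0.80), Rbm3, Dgkd (0.78 each) and Fig4 (0.77). Lep itself had r = 0.43 to Adipoq and ranked 3202 in its list.

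**Figure D4:**
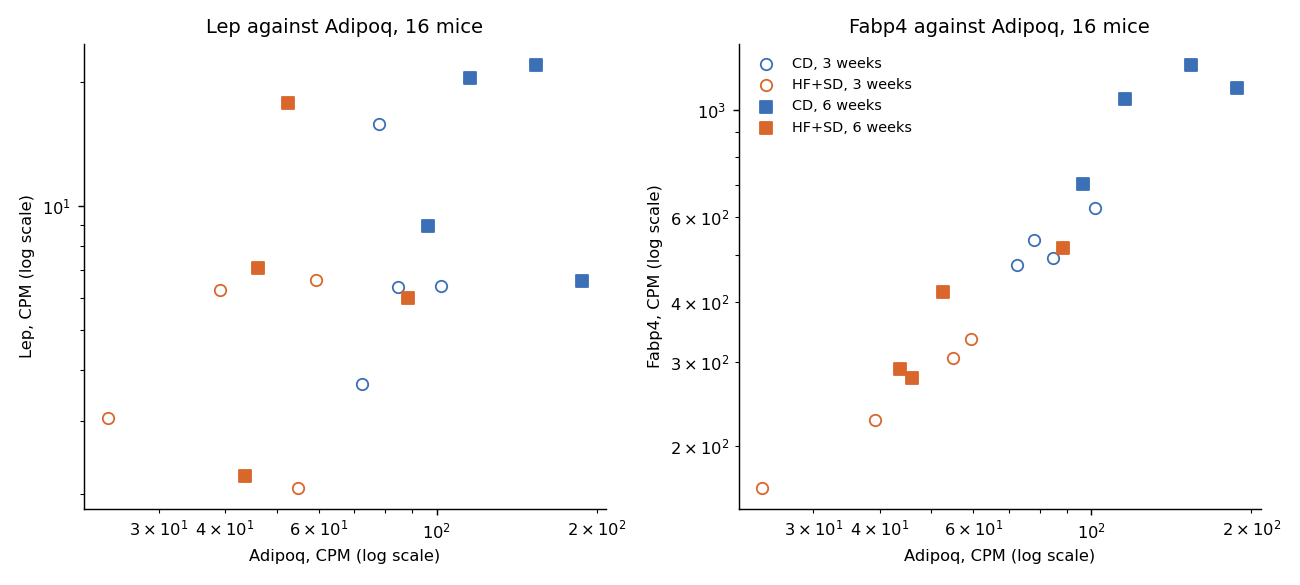
Level of Lep (left) and Fabp4 (right) against that of Adipoq in CPM, both axes on a log scale, with 1 point for each of 16 mice. Circles are 3 weeks and squares 6 weeks. Fabp4 tracks Adipoq closely (r = 0.97 of log2 CPM centred within time points) and Lep loosely (r = 0.43).

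Other white adipocyte genes were lower as well. In a list of 30, which includes the 7 used above, 20 were called lower and 0 higher at 6 weeks (median log2 fold change -1.30), and 17 lower and 0 higher at 3 weeks (median -1.01). The 3 largest called differences at 6 weeks were those of Slc2a4, the insulin-regulated glucose transporter (-3.94, SE 0.58, adjusted p = 0.00224), Car3, a carbonic anhydrase of fat and muscle (-3.48, SE 0.72, adjusted p = 0.0108), and Scd1, the desaturase that makes oleate (-3.07, SE 0.34, adjusted p = 0.000592). Scd1 and other lipid synthesis genes of this list are made by other cell types too. Slc2a4 and Car3 are also muscle genes. Without M43, M45 and M48 their log2 fold changes were -1.86 and -0.84, that of Scd1 was -2.96, and 12 of the 30 were called lower and 0 higher (median -1.03). At 3 weeks, where muscle RNA was low on both diets, Slc2a4, Car3 and Scd1 measured -1.87, -1.18 and -2.51.

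Most brown fat markers were lower in the same libraries. Of 14 such genes, 7 of 12 tested were called lower and 0 higher at 6 weeks (median -2.04). At 3 weeks 6 of 13 tested were called lower (median -1.37). The log2 fold change was below 0 for 9 of 12 at 6 weeks and for 10 of 13 at 3 weeks. Ppargc1a, Prdm16 and Lhx8 were above 0 at both times, and Zic1 had 0 CPM in each 3-week library. Ucp1, the uncoupling protein of brown fat, had 187 to 416 CPM on the CD and 5.87 to 54.1 CPM on the HF+SD at 6 weeks (log2 fold change -3.39, SE 0.70, adjusted p = 0.0111), and 52.6 to 163 CPM against 6.19 to 47.5 CPM at 3 weeks. Cox8b (-3.67) and Cidea (-3.15) were the others among the 3 largest at 6 weeks, and Cox8b is also made in muscle. Without M43, M45 and M48, which leaves M22 as the single CD mouse, the median of 13 tested brown fat genes was -1.28 at 6 weeks. Ucp1 measured -3.65 in that fit. Several of the 10 genes, among them Adipoq, Fabp4, Cidec and Pnpla2, are known to be expressed in brown as well as white fat, and their shares were not separated here.

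The lipolysis and droplet genes around the 10 did not all move alike. Of 17, 4 were called lower and 0 higher at 6 weeks, namely Cidea, Plin5 (-1.70), Adrb3, the fat cell adrenergic receptor (-1.33), and Pde3b, the phosphodiesterase through which insulin restrains lipolysis (-1.06). With M43, M45 and M48 left out, 3 were called lower at 6 weeks (Cidea, Plin5 and Pde3b). At 3 weeks 3 were called lower, namely Cidea (-2.07), Adrb3 (-1.42) and Pde3b (-1.11). Mgll, the monoglyceride lipase that acts after Lipe, was higher, by 0.52 at 3 weeks (SE 0.079, adjusted p = 0.00284, under the fold minimum), and measured 0.73 above at 6 weeks (SE 0.23, adjusted p = 0.0510). The list's median was -0.55 at 6 weeks and -0.37 at 3 weeks.

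Other secreted factors went in both directions. Of 14 adipokines beyond the 10 genes, 3 were called higher and 5 lower at 6 weeks (median -0.27), and 2 higher and 2 lower at 3 weeks (median 0.010). Called differences at 6 weeks included those of Sfrp5, a Wnt antagonist (6.40 to 8.78 CPM on the CD and 31.1 to 60.7 CPM on the HF+SD, log2 fold change 2.71, SE 0.22, adjusted p = 0.000189) and Rbp4, the retinol carrier (-2.32, SE 0.30, adjusted p = 0.00121). Sfrp5 (1.05) and Rbp4 (-1.48) were also called at 3 weeks. Without M43, M45 and M48, 1 was called higher (Sfrp5) and 1 lower (Rbp4) at 6 weeks. Sfrp5 is made by other cell types too.

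Receptors for adiponectin and leptin did not share one direction. At 6 weeks 0 of 5 were called with the fold minimum. Adipor2 measured -0.74 (SE 0.14, adjusted p = 0.00669), Adipor1 -0.86 (SE 0.34, adjusted p = 0.0987), and Cdh13, which binds adiponectin at the cell surface, -0.56 (SE 0.64, adjusted p = 0.562). Lepr, the leptin receptor, measured 0.56 above the CD (SE 0.17, adjusted p = 0.0414), and Cap1, a resistin receptor, 0.51 above (SE 0.14, adjusted p = 0.0277). At 3 weeks Cdh13 rose (4.32 ± 1.22 CPM on the CD and 16.5 ± 3.96 CPM on the HF+SD, SD, n = 4, log2 fold change 1.94, adjusted p = 0.00107) and Lepr measured 0.015 (adjusted p = 0.969). At 6 weeks Cdh13 ran from 5.68 to 86.9 CPM on the CD and from 24.7 to 30.6 CPM on the HF+SD. Without M43, M45 and M48, the 6-week log2 fold change of Cdh13 was 2.28. In that fit 1 of the 5 receptor genes lay below 0 (median 0.33), against 3 of 5 with all mice (median -0.56). These values rest on M22 as the single CD mouse and do not show a diet difference.

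Among 15 factors and cofactors linked to fat cell differentiation, 2 were called lower and 1 higher at 6 weeks, beside 12.6% of all genes. At 3 weeks 1 was called lower (Cebpb, -1.12) and 1 higher (Ppargc1b, 1.05). Those of 6 weeks were Rxrg (-4.27, SE 0.86, adjusted p = 0.00960), an RXR subtype of muscle and brain, Ppara (-1.41, SE 0.19, adjusted p = 0.00139) and Cebpd (1.01, SE 0.28, adjusted p = 0.0317). With M43, M45 and M48 left out, 0 of the 15 were called, and Rxrg measured -0.71. Of 7 preadipocyte genes, 0 of 6 tested were called at 6 weeks (median 0.64) and 0 of 7 at 3 weeks (median 0.20). The 3 largest at 6 weeks were Ly6a (0.86, edgeR adjusted p = 0.00196), Cd34 (0.80, adjusted p = 0.00476), which endothelial cells also make, and Col15a1 (0.68, adjusted p = 0.162). Ly6a, Cd34 and Dpp4 (0.60, adjusted p = 0.0400) passed the adjusted p but missed the fold minimum. Of the 6 tested, 1 was below 0. When M43, M45 and M48 were left out, which leaves M22 as the single CD mouse, Col15a1 measured 1.61.

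**Figure D5:**
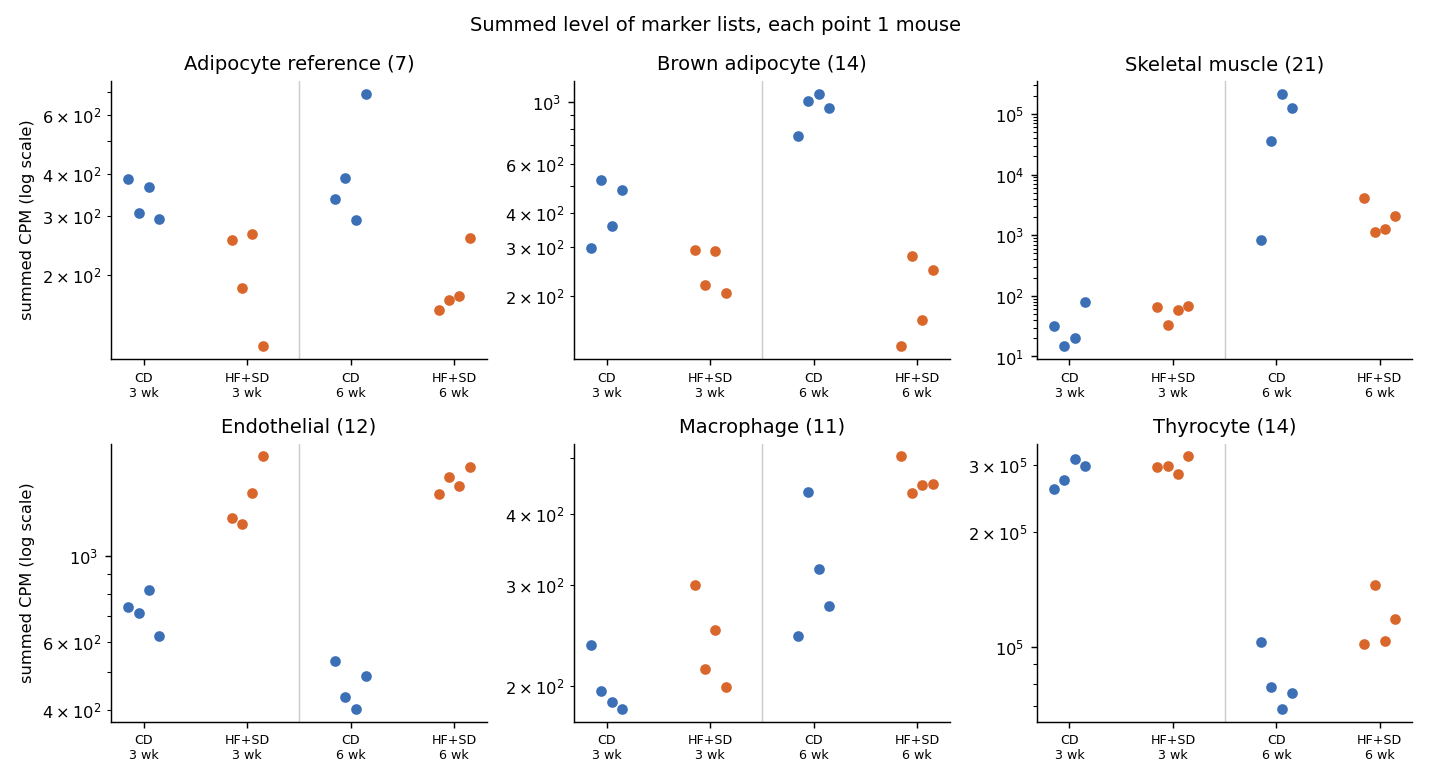
Summed CPM of 6 marker lists (log axis, number of genes in brackets), 1 point per mouse in each of the 4 groups. Adipocyte and brown adipocyte sums are lower on the HF+SD, endothelial sums are higher, and muscle sums reach 216215 CPM in the CD mice at 6 weeks.

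Macrophage genes, a source of Fabp4 and Pparg outside fat, were called higher for 2 of 11 genes at 6 weeks and for 0 at 3 weeks. None was called lower, and 12.6% and 4.66% of all genes were called in either direction. The median log2 fold change of the macrophage list was 0.79 at 6 weeks, with 0 of 11 below 0. At 3 weeks it was 0.13, with 1 below 0. The thyrocyte list had 7 of 14 called higher at 6 weeks and 4 at 3 weeks. Scaling to 9 other thyrocyte genes moved the median of all genes to -0.68 at 6 weeks and -0.18 at 3 weeks, and the 10 adipocyte genes then had medians of -1.77 and -1.14, with 10 and 8 called. Scaling to the 7 adipocyte genes moved the median of all genes to 1.00 and 1.03, and 0 of the 10 were then called at either time.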

How the data were processed

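Whole thyroid tissue was homogenized, poly(A) RNA was enriched and 1 library per mouse was sequenced. The deposited raw counts are reads per gene with no normalization. The submitters' processing notes name the mm39 build, Trim Galore 0.6.7, STAR, DESeq2 1.36.0 and R 4.1.0, while for the annotation and the counting program the sources used here name none. A second deposited table holds a signal, which the authors made by dividing each count by 1 size factor per library, and it served 1 alternative only.

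Identifiers were matched without version to GENCODE M21 names, which gave names to 20841 of 21640 genes and found all 10 members. Exon lengths came from the same annotation. Promoter windows are from RefSeq GRCm38.p6, and none of Fabp4 was used here. Counts were tested between diets, each time point apart, by edgeR 4.0.16 under R 4.3.3 (TMM, filterByExpr, glmQLFit, glmQLFTest), with Benjamini-Hochberg adjustment over all tested genes. A call needed an adjusted p below 0.05 together with a log2 fold change beyond 1 in size. The SE is the absolute log2 fold change divided by the square root of F. The biological coefficient of variation was 31.2% at 6 weeks and 18.2% at 3 weeks. Log2 CPM used a prior count of 2, and 1 gene at a time was also set between diets in a two-sided permutation test with all splits enumerated (exact). All 16 libraries entered the interaction of diet and time. Mice of a group differed by more than counting error (chi-square per gene of 15.1 to 871), and each counted as 1 replicate.

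The 10 members and the gene lists were chosen with earlier results of these data known. Members are described in full. From each other list, counts and the 3 called genes with the largest 6-week change are given, or the 3 largest changes where none was called. One gene that this rule names is not reported here. Receptor and lipolysis genes may be named in full, and for Adipoq and Lep the 5 genes of highest Pearson r are given. Mgll was named under that allowance. Alternatives were other scalings (DESeq2 factors, upper quartile, thyrocyte or adipocyte genes), count filters, DESeq2 1.42.0, limma 3.58.1 on the deposited signal, no fold minimum, a muscle or adipocyte score as covariate, 1 fit of all libraries and each mouse left out. The fit without M43, M45 and M48 and the ratio to Adipoq alone were added after seeing the data. The fitting code was tested on simulated counts.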

Additional observations from a re-analysis of the deposited data

Results flagged for a closer look

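Among 40 groups of 4 mice (10 genes in 4 groups), 1 mouse lay far from the others of its group by Dixon's test: Pparg in CD mouse M43 at 6 weeks measured 41.7 CPM, where the next CD mouse had 25.5 CPM and the lowest 23.3 CPM. Chance picks out about 1 in 20 groups in this way. Without M43, the 6-week log2 fold change of Pparg was -0.90 (edgeR adjusted p = 0.0108), under the fold minimum, so it was not called.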

How the results depend on the processing

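The 10 genes were below 0 at both time points under DESeq2 or upper-quartile factors, other count filters, DESeq2, limma on the deposited signal, thyrocyte scaling, the muscle covariate, 1 fit of all libraries and every left-out mouse. Of 410 alternative log2 fold changes of single genes, 319 kept direction and call, 63 lost the call, 13 gained it and 15 turned. The turned values arose under 2 settings. Scaling to the 7 adipocyte genes left 0 called at either time and gave at 6 weeks Lep 0.12 and Lipe 0.61, and at 3 weeks Adipoq 0.015, Lep 0.16, Plin4 0.40, Pnpla2 0.095 and Lipe 0.089. The adipocyte score as a covariate also left 0 called at either time and gave at 6 weeks Plin1 0.11, Cidec 0.095 and Lipe 0.53, and at 3 weeks Adipoq 0.44, Retn 0.23, Plin4 0.49, Cidec 0.12 and Fabp4 0.064. With that covariate, 318 genes were called at 6 weeks and 8 at 3 weeks, against 2308 and 803.

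At 6 weeks the count of called genes among the 10 was 4 with the muscle covariate, 1 without M43, M45 and M48 (added after seeing the data), and 4 to 8 over the left-out mice, 4 without M34. Among all genes 1461 were called with the muscle covariate, 893 without M43, M45 and M48, 3927 with no fold minimum, 5236 under thyrocyte scaling (492 higher), 9487 under adipocyte scaling (8922 higher), and 1468 to 3169 over the left-out mice, against 1211 of 2308 higher. At 3 weeks the count among the 10 was 8 under thyrocyte scaling, 8 with no fold minimum, and 1 to 7 over the left-out mice, 1 without M31. Among all genes 2560 were called with no fold minimum and 9321 under adipocyte scaling (9267 higher), and thyrocyte scaling gave 411 of 840 higher, against 561 of 803. The interaction called 0 of the 10 under each setting, while all-gene counts ran from 0 under thyrocyte scaling to 1489 without M22. The causes were not tested.

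Of 198 alternative ratios to adipocyte genes, 26 turned, none of them for Lipe or Fabp4 at 6 weeks or Plin4 at 3 weeks. Over the left-out mice the ranges at 6 weeks were -0.46 to 0.45 (Lep), -0.14 to 0.033 (Plin1), -0.15 to 0.073 (Cidec), -0.16 to 0.0053 (Pnpla2) and -0.27 to 0.088 (Pparg). At 3 weeks they were -0.057 to 0.11 (Adipoq), -0.063 to 0.60 (Lep), -0.10 to 0.015 (Cidec), -0.026 to 0.18 (Pnpla2) and -0.029 to 0.14 (Lipe). Against Adipoq alone, Plin1 gave 0.23, Cidec 0.23, Pnpla2 0.19 and Pparg 0.20 at 6 weeks. With 1 mouse left out, Fabp4 at 6 weeks stayed between -0.57 and -0.39, with an exact permutation p of 0.0286 or 0.0571. No paired analysis was possible because the labels name mice and give groups no shared replicate numbers.

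Lep had the largest SEs of the 10 genes and the fewest counts, as few as 76 in a library. Its levels also differed widely between mice, from 2.21 to 17.8 CPM in the HF+SD mice at 6 weeks. With 4 mice a group, a difference larger than its SE did not always pass the adjusted p. Plin4 at 3 weeks (log2 fold change -0.56, SE 0.21, edgeR adjusted p = 0.0996) and Lipe at 6 weeks (-0.43, SE 0.23, adjusted p = 0.219) did not. The SE is therefore not a detection limit, and no such limit was worked out. The muscle RNA of 6 weeks, high in 3 of the 4 CD mice, cannot be fully told apart from diet. With the muscle score as a covariate, Lep at 6 weeks measured -1.43 (edgeR adjusted p = 0.224).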
